A study of Capra hircus with 12 samples.

Results

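Of the 24116 loci listed in black goat (Capra hircus) testis, 186 had their highest RNA level in neonatal animals, at least 2 times the prepuberty level on average. The loci were chosen by thresholds on FPKM, the fragments on a locus per kilobase and per size of its library, as deposited by the authors. A chosen locus has an identifier of the form MSTRG.n with n under 405000, a mean over the 11 libraries under 20 FPKM, and at least 2 FPKM in each of the 3 neonatal libraries. Its lowest neonatal value lies above all 8 later values, and its neonatal mean is at least 2 times its prepuberty mean. These thresholds read the neonatal values against all later ones, so the neonatal excess below describes how the loci were picked and carries no test. Without neonatal replicate 1, 371 loci met the rule, 174 of them among the 186. Without prepuberty replicate 2, 281 loci met it, 184 of them among the 186. Other libraries cost more of the set. Without prepuberty replicate 3, 152 loci met the rule, 143 of them among the 186. Without neonatal replicate 2, 223 loci met it, 157 of them among the 186.

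Total RNA was taken from testes of wild-type goats and sequenced with a library kit for long non-coding RNA, to follow coding and non-coding transcripts while the testis develops. The ages are named neonatal (titles with D3), prepuberty (D30), puberty (D90) and postpuberty (D180) in the labels. There were 3 neonatal, 3 prepuberty, 2 puberty and 3 postpuberty libraries, and puberty replicate 1 was not analysed here. Separate animals are not stated for the replicates in the labels. The p-values therefore reflect the spread between these libraries alone, which may be technical.

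In the newborn mammalian testis the seminiferous cords hold dividing Sertoli cells, the supporting cells of the cords, and the precursors of the sperm-forming stem cells. Around puberty Sertoli cells stop dividing, and meiotic cells and then spermatids come to fill the tubules. In bulk samples of the organ, fewer cells of a type and less RNA per cell cannot be told apart. MSTRG identifiers are names that the assembler StringTie gives to loci built from the reads.

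None of the identifiers matched the 28911 genes of the ARS1.2 reference table, so the 186 loci have no symbol, coding class or position here, and they are described by level, reads, length and identifier. For the same reason the labelled tissue could not be checked against marker genes, and no sequence is shown.

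The FPKM values could be turned back into whole reads for all 24116 loci, which also gave each locus an implied length in bases. If the true counts of a locus had a common divisor, the recovered reads and the implied length would both be too small by it, so both are the smallest whole values that the FPKM allow. The totals behind the scaling lay between 19128357 reads (neonatal replicate 3) and 35614224 (puberty replicate 2). Of these, the listed loci held 22.3% to 25.6% in neonatal, 19.2% to 19.7% in prepuberty, 13.7% and 15.1% in puberty and 16.3% to 18.0% in postpuberty libraries. An FPKM therefore rests on few reads where a locus is short: over the 3 neonatal libraries the 186 loci had a median of 808.5 reads each, with 35 for the lowest and 48586 for the highest, and 12 loci had under 100. Prepuberty replicate 1 stood apart in one respect. At loci near absent from the other younger libraries it carried 0.349% of the mean puberty and postpuberty level, against 0.0456% to 0.0512% in the other 5 younger libraries. Counts are given with and without it below.

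Summed over the 186 loci, FPKM was 796, 864 and 884 in the neonatal libraries, 333, 383 and 277 in prepuberty, 110 and 88.7 in puberty, and 120, 117 and 119 in postpuberty. The sum was lower in each later library than in any neonatal one, which the rule requires, and the 2 puberty and 3 postpuberty sums also lay below all 3 prepuberty sums, which it does not. The neonatal libraries averaged 848 ± 45.8 (SD, n = 3), the prepuberty libraries 331 ± 53.1 (n = 3), the puberty libraries 99.4 ± 15.1 (n = 2) and the postpuberty libraries 119 ± 1.72 (n = 3). Counted as reads, the loci held 7819 ± 466 of each 1000000 scaling reads in neonatal libraries. The share was 3037 ± 634 at prepuberty, 695 ± 129 at puberty and 868 ± 23.6 at postpuberty. Of the FPKM sum over all listed loci, the set made up 0.633% to 0.683% in neonatal and 0.352% to 0.504% in prepuberty libraries. It made up 0.161% and 0.164% in puberty and 0.189% to 0.200% in postpuberty libraries.

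The rule requires the fall from the neonatal level at each locus, and a further fall from prepuberty to puberty was shared by most of them. The neonatal counts below, and the first place of neonatal in each order of means, follow from the rule. The median of the loci's means was 3.60 FPKM at the neonatal age, 1.40 at prepuberty, 0.305 at puberty and 0.362 at postpuberty. A mean of at least 1 FPKM was held by 186 loci at the neonatal age, by 154 at prepuberty, by 25 at puberty and by 36 at postpuberty. In the order of their 4 means, 116 loci ran neonatal, prepuberty, postpuberty, puberty from high to low, and 51 ran neonatal, prepuberty, puberty, postpuberty. Of the others, whose prepuberty mean was below a later mean, 9 ran neonatal, postpuberty, puberty, prepuberty, 8 ran neonatal, postpuberty, prepuberty, puberty, and 2 ran neonatal, puberty, prepuberty, postpuberty.

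**Figure D1:**
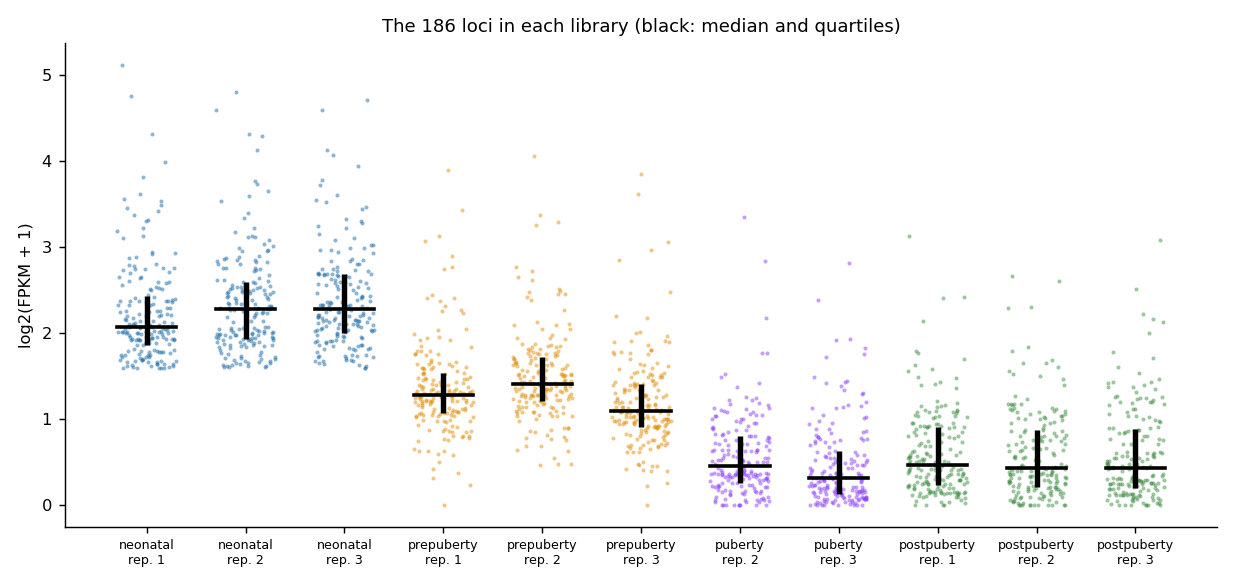
Each point is 1 of the 186 loci in 1 library, as log2(FPKM + 1) on the vertical axis, with libraries along the horizontal axis in order of age; the black marks give the median and quartiles. Median FPKM was 3.18 to 3.84 in the neonatal libraries, 1.13 to 1.66 in prepuberty, 0.236 to 0.371 in puberty and 0.343 to 0.382 in postpuberty.

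Few loci lost their reads completely. At least 1 read was found at all 186 loci in each neonatal library, which the floor of the rule guarantees. In the prepuberty libraries 1, 0 and 1 loci had no reads. In the puberty libraries 9 and 8 had none, and in postpuberty 4, 11 and 7 had none. Both puberty libraries lacked reads at MSTRG.59720, MSTRG.28324 and MSTRG.151220, named here after their values were seen, and 0 loci lacked reads in all puberty and postpuberty libraries. MSTRG.28324 had 63, 92 and 102 reads in neonatal, 26, 47 and 30 in prepuberty, 0 and 0 in puberty, and 8, 0 and 0 in postpuberty libraries. With puberty set at 3 reads per library, an approximate upper bound for a count of 0 (counting error only), its neonatal mean was 51.0 times its puberty mean. The same ratio was 16.7 for MSTRG.59720 and 14.1 for MSTRG.151220. These ratios take the neonatal values as exact, so they are not strict lower limits.

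A group of 10 loci had a neonatal mean of at least 10 FPKM, and together they held 18.3% ± 1.29 (SD, n = 3) of the summed neonatal level. At MSTRG.89171 the neonatal libraries had 33.7, 23.1 and 25.2 FPKM, the prepuberty libraries 9.73, 15.7 and 13.4, the puberty libraries 6.12 and 6.0 and the postpuberty libraries 4.32, 5.08 and 3.66. FPKM at MSTRG.100039 was 26, 26.9 and 23 in the neonatal, 13.8, 8.81 and 11.2 in the prepuberty, 9.15 and 4.21 in the puberty and 7.74, 5.33 and 7.42 in the postpuberty libraries. These are the highest of the set, both are short (lengths of 280 and 227 bases), and both kept several FPKM after puberty. MSTRG.89171 rests on 194, 127 and 135 neonatal reads, and the 2 puberty values of MSTRG.100039 straddle its lowest prepuberty value.

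MSTRG.197909 had 14.8, 18.6 and 16.5 FPKM in the neonatal libraries, 5.71, 8.56 and 6.21 in prepuberty, 0.995 and 0.919 in puberty, and 1.24, 0.929 and 1.54 in postpuberty. At MSTRG.197907 the neonatal libraries had 18.9, 16.4 and 14.3 FPKM, the prepuberty libraries 7.74, 9.37 and 7.33, the puberty libraries 1.25 and 1.05 and the postpuberty libraries 1.77, 2.46 and 2.26. The identifiers of this pair lie 2 apart, with implied lengths of 536 and 25924 bases, and at both loci the puberty and postpuberty values lay below all prepuberty values. At MSTRG.197907 the puberty values also lay below all postpuberty values.

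FPKM at MSTRG.24683 was 7.6, 18.8 and 15.8 in the neonatal, 6.41, 5.1 and 6.82 in the prepuberty, 0.548 and 0.135 in the puberty and 0.402, 0.562 and 0.0921 in the postpuberty libraries. MSTRG.357609 had 13.1, 12.6 and 12.7 FPKM in the neonatal libraries, 7.37, 5.26 and 4.57 in prepuberty, 1.59 and 1.72 in puberty, and 1.04, 1.26 and 1.27 in postpuberty. At MSTRG.116326 the neonatal libraries had 8.81, 11.5 and 12.1 FPKM, the prepuberty libraries 4.16, 5.59 and 2.9, the puberty libraries 0.736 and 0.373 and the postpuberty libraries 0.488, 0.589 and 0.692. MSTRG.24683 came near its prepuberty values in neonatal replicate 1, whereas MSTRG.357609 hardly varied between the neonatal libraries. MSTRG.116326 has one of the longest implied lengths of the set, 75953 bases, and its neonatal values rest on 13746, 17212 and 17628 reads.

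FPKM at MSTRG.357603 was 9.92, 12.3 and 9.82 in the neonatal, 5.82, 4.49 and 3.58 in the prepuberty, 0.689 and 0.117 in the puberty and 0.722, 0.466 and 0.367 in the postpuberty libraries. MSTRG.335409 had 10.3, 9.53 and 10.6 FPKM in the neonatal libraries, 4.42, 4.47 and 3.5 in prepuberty, 0.739 and 0.381 in puberty, and 0.337, 0.26 and 0.0483 in postpuberty. At MSTRG.319787 the neonatal libraries had 10.7, 11 and 8.47 FPKM, the prepuberty libraries 4.3, 4.21 and 3.04, the puberty libraries 0.286 and 0.275 and the postpuberty libraries 0.677, 0.691 and 0.784. All 3 loci were under 1 FPKM in each puberty and postpuberty library. At MSTRG.335409 both puberty values lay above all postpuberty values, and at MSTRG.319787 both lay below them.

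**Figure D2:**
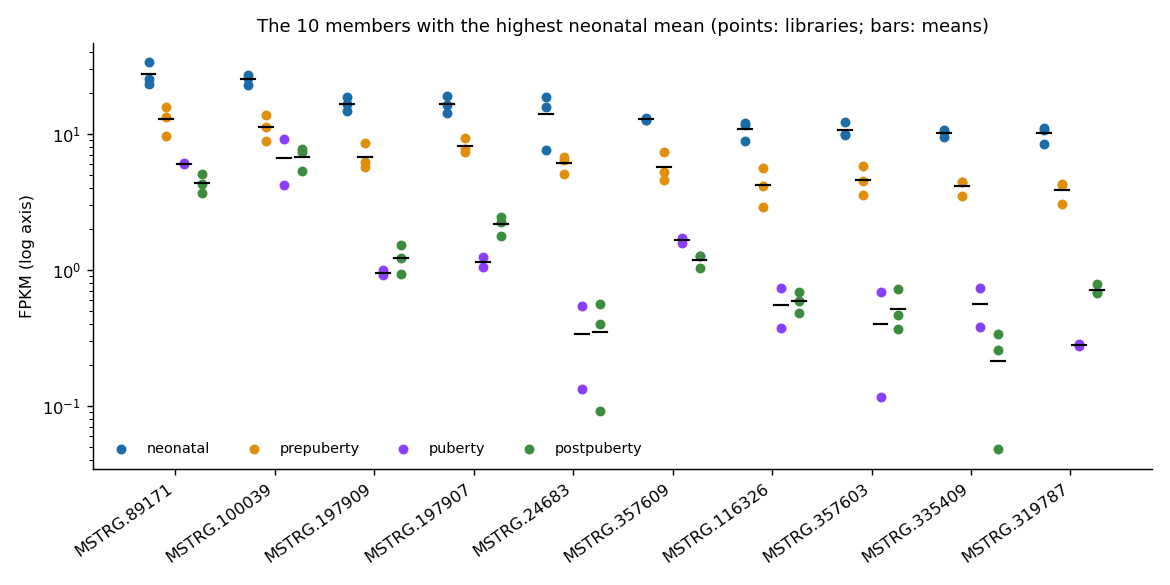
FPKM on a log axis for the 10 loci with the highest neonatal mean; points are libraries (3 neonatal, 3 prepuberty, 2 puberty and 3 postpuberty) and bars are means. MSTRG.89171 and MSTRG.100039 stay above 3 FPKM in each library, and the other 8 loci are at 2.46 FPKM or lower in puberty and postpuberty.

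At most loci the loss by prepuberty was smaller than the loss by puberty. The ratio of the neonatal to the prepuberty mean had a median of 2.45 and ran from 2.00 to 22.5. It was at least 3 at 50 loci, at least 4 at 16 and at least 5 at 9. The ratio of the neonatal to the puberty mean had a median of 13.5 over the 183 loci with puberty reads (13.6 over all 186 with the other 3 at their bound), and the ratio to the postpuberty mean had a median of 11. It was at least 10 at 108 loci for puberty and at 101 for postpuberty.

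The 5 loci with the steepest early loss had neonatal means of 2.33 to 3.59 FPKM, all under the median of the set. FPKM at MSTRG.264218 was 3.75, 2.2 and 2.51 in the neonatal, 0, 0.377 and 0 in the prepuberty, 0 and 0.418 in the puberty and 0.277, 0.684 and 0.159 in the postpuberty libraries. Its ratio of 22.5 rests on 16, 9 and 10 neonatal reads and on 0, 2 and 0 prepuberty reads over an implied length of 208 bases. MSTRG.298536 had 3.07, 4.25 and 2.11 FPKM in the neonatal libraries, 0.332, 0.454 and 0.167 in prepuberty, 0.192 and 0.129 in puberty, and 0.103, 0.243 and 0.216 in postpuberty. It had 212, 281 and 136 neonatal reads, and its neonatal to prepuberty ratio was 9.89.

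At MSTRG.309706 the neonatal libraries had 2.44, 2.24 and 2.59 FPKM, the prepuberty libraries 0.175, 0.542 and 0.316, the puberty libraries 0.0263 and 0.0407 and the postpuberty libraries 0.101, 0.108 and 0.0774. Its neonatal mean was 7.04 times the prepuberty mean and 72.3 times the puberty mean, and both puberty values lay below all postpuberty values. FPKM at MSTRG.44449 was 2.11, 4.45 and 4.2 in the neonatal, 0.721, 0.394 and 0.637 in the prepuberty, 0.391 and 0.0896 in the puberty and 0.134, 0.22 and 0.128 in the postpuberty libraries. Its ratios were 6.14 for prepuberty and 14.9 for puberty, with neonatal replicate 1 nearest to the prepuberty values.

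MSTRG.88397 had 2.28, 2.09 and 2.61 FPKM in the neonatal libraries, 0.292, 0.55 and 0.193 in prepuberty, 0.88 and 0.591 in puberty, and 0.927, 1.35 and 1.04 in postpuberty. MSTRG.88397 ran the other way after prepuberty: both puberty values lay above all prepuberty values, and the postpuberty values lay above both. Its neonatal mean was 6.74 times the prepuberty mean but 3.16 times the puberty mean and 2.1 times the postpuberty mean.

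The coefficient of variation over the 3 neonatal libraries had a median of 17.9% at the 186 loci, of which counting the recovered reads alone gives a median of 6.09%. It was 15.1% at the 1423 other loci that met the parts of the rule on identifier, mean and floor, so spread of this kind is not particular to the set. MSTRG.286168 had 6.33, 2.03 and 2.33 FPKM in neonatal replicates 1, 2 and 3, a coefficient of variation of 67.5%. MSTRG.204216 had 8.28, 3.02 and 3.51 FPKM in neonatal replicates 1, 2 and 3, a coefficient of variation of 58.8%. MSTRG.388761 had 3.88, 10.5 and 4.81 FPKM in neonatal replicates 1, 2 and 3, a coefficient of variation of 56.3%. In each of these 3 most variable loci a single neonatal library was far above the other 2, replicate 1 in MSTRG.286168 and MSTRG.204216 and replicate 2 in MSTRG.388761. The least variable locus was MSTRG.357609 at 1.86%. MSTRG.310451 had 6.61, 6.37 and 6.81 FPKM in neonatal replicates 1, 2 and 3, a coefficient of variation of 3.32%. MSTRG.198540 had 3.88, 3.77 and 3.63 FPKM in neonatal replicates 1, 2 and 3, a coefficient of variation of 3.36%. Relative to their means, the neonatal values of these 3 loci lay closest together.

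Particular libraries were often the lowest or highest of their age. Loci where libraries tied for an extreme were counted for none of them but kept in the total. This lowers the shares of the tested loci more than those of the set at the younger ages, where the shares are not directly comparable. Neonatal replicates 1, 2 and 3 were the lowest at 45.7%, 31.2% and 23.1% of the 186 loci, against 37.1%, 20.5% and 20.1% of the 12954 tested loci. Neonatal replicate 1 was the highest at 33 loci (17.7%, against 21.0%). Prepuberty replicates 1, 2 and 3 were the lowest at 21.5%, 10.8% and 67.2%, against 21.0%, 21.2% and 36.2%. They were the highest at 28.0%, 62.9% and 9.14%, against 30.9%, 36.2% and 19.5%. Puberty replicate 2 was above puberty replicate 3 at 129 loci (69.4%, against 58.8%). Postpuberty replicates 1, 2 and 3 were the highest at 34.9%, 33.3% and 31.7% of the set, against 25.2%, 29.4% and 44.9% of the tested loci.

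Several loci sit close to a threshold. At the floor of 2 FPKM, the lowest neonatal value was 2.001 FPKM at MSTRG.269356 and 2.003 at MSTRG.343696, which are inside, and 1.9996 at MSTRG.268038 and 1.996 at MSTRG.254795, which are outside. At the fold of 2, the ratio was 2.0004 at MSTRG.248558 and 2.01 at MSTRG.378080, against 1.9999 at MSTRG.2903 and 1.997 at MSTRG.298566 outside. The lowest neonatal value divided by the highest later value was 1.02 at MSTRG.249707 and 1.04 at MSTRG.62725 inside, and 0.997 at MSTRG.27024 and 0.981 at MSTRG.354012 outside. The last loci under the identifier limit were MSTRG.404516 and MSTRG.403962, and the first above it that met the rest of the rule were MSTRG.408867 and MSTRG.410356. The limit on the mean kept out 1 locus, MSTRG.335283 with a mean of 32230 FPKM, far above MSTRG.89171 (13.3) and MSTRG.100039 (13.1) inside. Of the 1609 loci that met the parts on identifier, mean and floor, 671 had their neonatal values above all later ones, and 485 of these were left out by the fold alone.

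The comparison of puberty with prepuberty asks what happened to these loci after the loss that defined them. The rule used the values of both ages: it held the prepuberty mean to at most the neonatal mean divided by 2, and it capped both ages below the lowest neonatal value. The test therefore draws on values that chose the loci, and it is not independent of the choice. Values were tested as log2(FPKM + 1), a scale that understates the change of low loci, with limma fitted to all 11 libraries and all 12954 loci that had at least 1 FPKM in at least 2 libraries. All 186 loci passed that filter because the floor of the rule guarantees it. A call needed a Benjamini-Hochberg adjusted p under 0.05, over all 12954 loci, together with a log2 change no smaller than 1 in size.

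In puberty, 68 of the 186 loci (36.6%) were called lower than in prepuberty, where 13.0% of all tested loci were. All 68 also had both puberty values below all prepuberty values. That separation was found at 156 of the 186 loci, against 36.8% of all tested loci. The median change, puberty minus prepuberty, was -0.84 on the log2 scale over the 186 loci (-0.83 with the 3 loci without puberty reads at their bound), against 0.26 over all tested loci. The fitted change was negative at 176 of the 186 and positive at 10.

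Whether a locus could be called depended on its level, since a locus at 1 FPKM in prepuberty cannot fall by more than 1 on this scale. The prepuberty level left room for a fall of 1 at 152 of the 186 loci and at 4691 of all tested loci. Of these, 68 (44.7%) of the set and 1681 (35.8%) of all tested loci were called lower. By neonatal mean, calls were made at 5 of 49 loci under 3 FPKM, at 36 of 96 loci from 3 to under 5 FPKM, and at 27 of 41 loci at 5 FPKM or more. By implied length, 13 of 33 loci under 1000 bases, 37 of 112 from 1000 to under 10000 bases and 18 of 41 at 10000 bases or more were called.

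**Figure D3:**
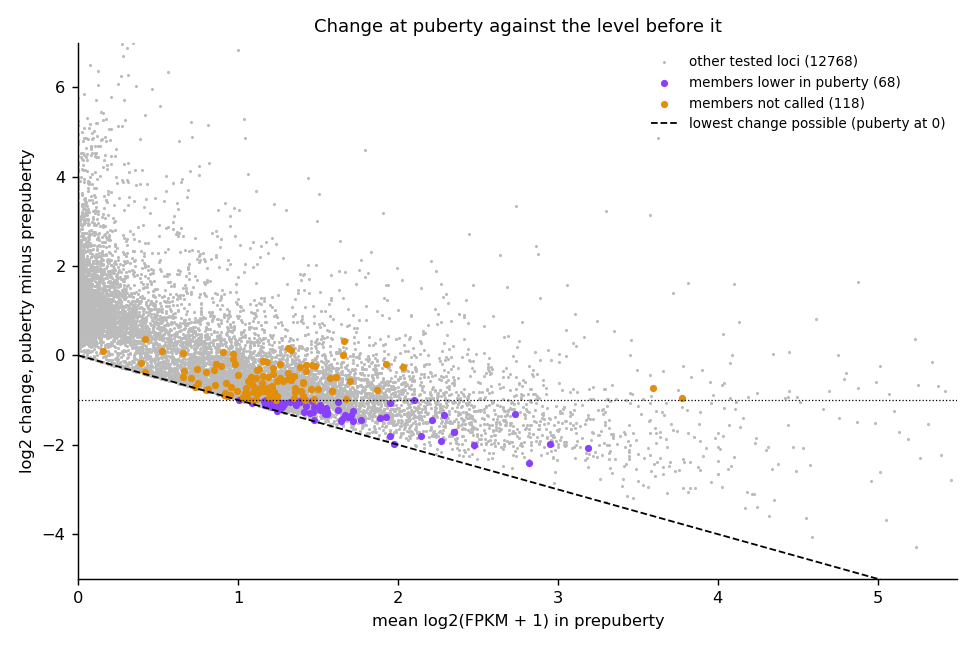
Log2 change, puberty minus prepuberty, on the vertical axis against the mean log2(FPKM + 1) in prepuberty on the horizontal axis, for the tested loci within the axes. The 68 called loci of the set lie at -1 or lower, the 118 not called mostly above it, and the dashed line marks where puberty would be at 0 FPKM.

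On the log2(FPKM + 1) scale, where a fall cannot exceed the prepuberty level, the largest falls were at loci already described for their neonatal level. As a ratio of means the order differs. MSTRG.346276, with 2.14 FPKM in prepuberty and 0.129 in puberty, fell further than MSTRG.197907, MSTRG.357603 and MSTRG.197909, but not further than MSTRG.24683. MSTRG.24683 fell by 2.42 on the log2 scale (SE 0.31, limma adjusted p = 5.1e-05), with 0.341 ± 0.292 FPKM in puberty (SD, n = 2) against 6.11 ± 0.898 in prepuberty (n = 3). MSTRG.197907 fell by 2.08 (SE 0.16, limma adjusted p = 1.24e-06) and had 1.15 ± 0.141 FPKM in puberty against 8.15 ± 1.08 in prepuberty. MSTRG.357603 fell by 2.02 (SE 0.21, limma adjusted p = 1.25e-05) and its neighbour in number MSTRG.357609 by 1.32 (SE 0.16, limma adjusted p = 3.43e-05). MSTRG.197909 fell by 1.98 (SE 0.18, limma adjusted p = 3.85e-06), with 0.957 ± 0.0542 FPKM in puberty against 6.83 ± 1.52 in prepuberty. Of the 10 highest loci, 8 were called lower. The other 2 were MSTRG.89171, with a change of -0.96 and a limma adjusted p of 0.00203, and MSTRG.100039, with -0.73 and 0.0297, both short of the change of 1.

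The 5 loci with the steepest early loss were picked on their low prepuberty values, which enter this comparison again. Their prepuberty means were all under 1 FPKM, so a call lower was not possible at any of them. At an unadjusted p under 0.05, MSTRG.309706 was lower and MSTRG.88397 higher, and voom on the recovered reads called both. MSTRG.309706 had 0.0335 ± 0.0102 FPKM in puberty (n = 2) against 0.344 ± 0.185 in prepuberty (n = 3), a change of -0.37 on the log2 scale (limma adjusted p = 0.0223). MSTRG.298536 and MSTRG.44449 had changes of -0.18 and -0.36 with limma adjusted p of 0.41 and 0.165, and MSTRG.264218 had 0.10 with 0.714.

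None of the 186 loci was called higher in puberty than in prepuberty by limma, where 23.7% of all tested loci were. At an unadjusted p under 0.05, 2 loci were higher, and voom on the recovered reads called 1. The rule's ceiling left room for a rise of 1 at 25 of the 186 loci, so these counts are limited by the choice of the loci. Both puberty values lay above all prepuberty values at 2 loci, against 48.4% of all tested loci. These were MSTRG.88397, with a change of 0.37 (SE 0.15, limma adjusted p = 0.0436), and MSTRG.290928, with 0.33 (SE 0.14, limma adjusted p = 0.0548). At MSTRG.290928 the neonatal libraries had 5.08, 5.73 and 5.44 FPKM, the prepuberty libraries 2.11, 2.51 and 1.9, the puberty libraries 3.49 and 2.53 and the postpuberty libraries 4.28, 3.92 and 4.69. The postpuberty values of MSTRG.290928, a locus named after its values were seen, lay between its puberty and neonatal values. Its neonatal mean was 1.26 times its postpuberty mean, the smallest such ratio of the set.

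**Figure D4:**
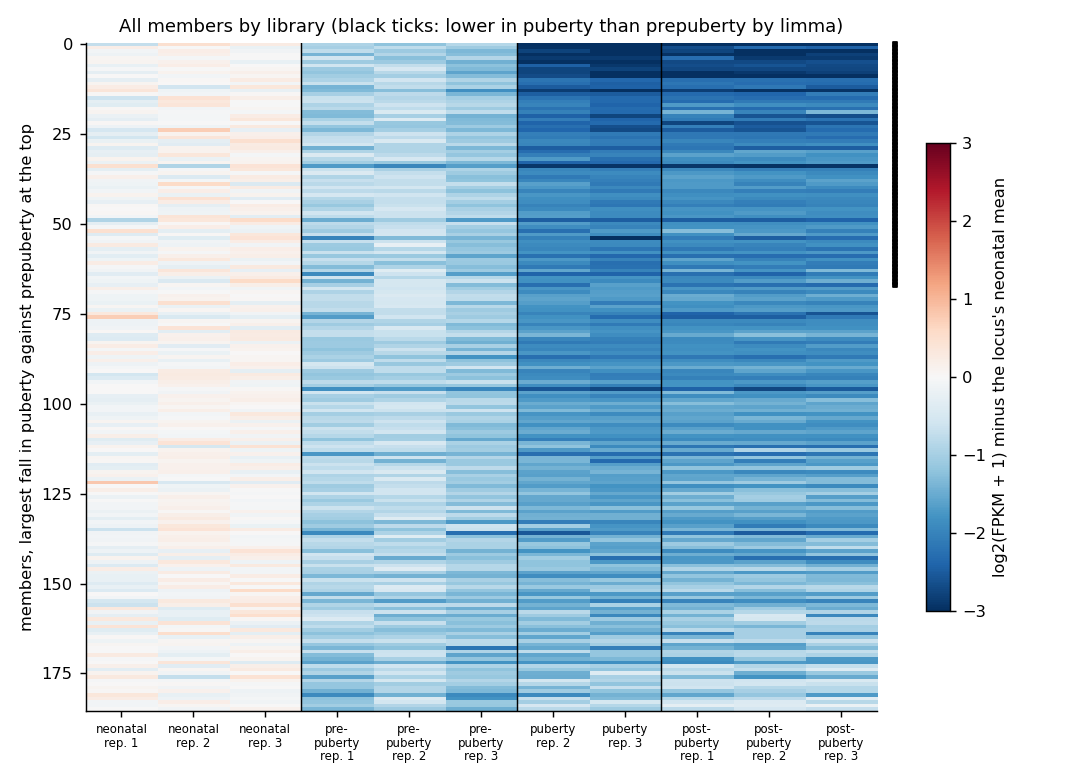
Rows are the 186 loci, ordered by their change in puberty against prepuberty, and columns are the 11 libraries. Colour is log2(FPKM + 1) minus the neonatal mean of the locus, cut off at 3 in both directions, and black ticks at the right mark the 68 loci called lower in puberty. The lowest rows, where puberty is not below prepuberty, hold the 10 loci with a positive change.

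The puberty level left room for a fall of 1 at 24 of the 186 loci, and the ceiling of the rule left room for a rise of 1 at 163, so the counts of lower calls below are limited by the choice of the loci. Between puberty and postpuberty no locus of the set met both parts of a call. By limma, 0 of the 186 loci were called lower in postpuberty (0.139% of all tested loci were; 2 of the set at an unadjusted p under 0.05, and 1 by voom on the recovered reads) and 0 were called higher (1.26% of all tested loci were; 12 of the set at an unadjusted p under 0.05, and 0 by voom). The median change, postpuberty minus puberty, was 0.07 on the log2 scale, against 0.18 over all tested loci. All 3 postpuberty values lay above both puberty values at 42 loci, against 35.7% of all tested loci, and below both at 10, against 3.88%. MSTRG.197907 was among the 42, with a change of 0.55 and a limma adjusted p of 0.0469, and MSTRG.319787 too, with 0.42 and 0.0982.

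The comparison of postpuberty with prepuberty shares the prepuberty libraries with the one of puberty, so the pair are not independent. In postpuberty, 59 of the 186 loci (31.7%) were called lower than in prepuberty by limma, where 11.8% of all tested loci were. All 3 postpuberty values lay below all prepuberty values at 143 loci (33.0% of all tested loci) and above them at 7 (51.9%). Among loci whose prepuberty level left room for a fall of 1, 59 of 152 (38.8%) of the set and 1530 of 4691 (32.6%) of all tested loci were called lower. The median change was -0.80 on the log2 scale over the set and 0.55 over all tested loci. The median change and the separation were not compared among loci with room for a fall alone, so they may reflect level in part. None was called higher, where 38.7% of all tested loci were; 4 of the set were at an unadjusted p under 0.05, and voom called 2. The ceiling of the rule left room for a rise of 1 at 25 of the 186 loci, so the counts of 0 and 7 are limited by the choice of the loci. MSTRG.24683 fell by 2.40 (SE 0.28, limma adjusted p = 1.35e-05), MSTRG.335409 by 2.08 (SE 0.14, limma adjusted p = 2.13e-07), MSTRG.357603 by 1.88 (SE 0.19, limma adjusted p = 4.92e-06) and MSTRG.197909 by 1.80 (SE 0.16, limma adjusted p = 1.75e-06).

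The size of these counts depended on how the libraries were put on a common scale and on the value added before the log. The median change of all tested loci, puberty minus prepuberty, was 0.26 on the log2 scale as deposited, 0.50 after median of ratios scaling, 0.06 after quantile normalization and 0.91 after rescaling to TPM (FPKM divided by its sum over the listed loci of the library). The median of the set was -0.84, -0.69, -1.09 and -1.79 in the same order, which relative to all tested loci is -1.10, -1.18, -1.16 and -2.70. Loci called lower in puberty numbered 68 as deposited, 35, 112 and 129 under these scalings, and the 35 were all among the 68. As TPM the FPKM sums of the libraries (55100 to 129000) become 1000000, so the added 1 weighs less. With 0.1 added to the deposited FPKM instead, the medians were -1.95 for the set and 0.60 for all tested loci (-2.55 relative). The count was then 141. How much of the TPM result comes from the scale and how much from the added value was not tested. Over all tested loci, 13.0% were called lower and 23.7% higher as deposited, 7.71% and 34.1% after median of ratios scaling, 20.8% and 21.0% after quantile normalization, and 25.7% and 47.4% as TPM. The calls at MSTRG.357609, MSTRG.77408 and MSTRG.77409 were lost under median of ratios scaling, with changes of -0.91, -0.92 and -0.97. Without prepuberty replicate 1, the library that stood apart, 67 loci were called lower in puberty (61 of them among the 68) and 57 in postpuberty (52 among the 59). Without it 193 loci met the rule of the set, 169 of them among the 186.

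The neonatal excess itself also moved with the scale. The median ratio of the neonatal to the prepuberty mean was 2.45 as deposited, 2.12 after median of ratios scaling, 2.17 after quantile normalization and 1.46 as TPM, and the same ratio over the 10571 tested loci with reads at both ages was 1.26, 1.08, 1.02 and 0.746. All 186 loci kept a ratio above 1 under each of these, with lowest ratios of 1.71, 1.56 and 1.19 under the 3 rescalings. The rule had set the deposited ratio at 2 or more, so this was largely fixed by the choice of the loci. A ratio of at least 2 was kept by 113, 122 and 30 loci under the 3 rescalings, and 165, 175 and 76 kept all neonatal values above all later ones.

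By their median the loci are longer than the tested loci, but shorter than others like them in level. The 1423 other loci that met the parts of the rule on identifier, mean and floor had a median of 6161 bases. The implied length had a median of 4207 bases over the 186 loci (203 to 79869), against 2239 over all tested loci and 5844 over the 1609 loci that met the parts of the rule on identifier, mean and floor. It was 10000 bases or more at 41 loci and under 1000 bases at 33. A longer locus gathers more reads at the same FPKM, so the values of long loci carry less counting error. The median neonatal level was 4.38 FPKM at the loci under 1000 bases, 3.51 at those from 1000 to under 10000 bases and 3.95 at the longer ones, and the median ratio of the neonatal to the prepuberty mean was 2.67, 2.44 and 2.33.

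Some identifiers lie close together in number. Whether near numbers mean near positions could not be checked here, and whether loci with near numbers share a transcript was not tested. With steps of at most 20 in number, 57 of the 186 loci fell into 24 runs, and the longest run held 4. With steps of at most 5 there were 16 runs with 38 loci, and with steps of 1 there were 5 pairs. Of the 1609 loci that met the parts of the rule on identifier, mean and floor, 630 stood within 20 numbers of another such locus. Nearness in number is thus not particular to the set, and whether the set is more clustered was not tested.

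Of the 5 pairs with consecutive numbers, the 3 with the highest neonatal sums are given in full. FPKM at MSTRG.167504 was 4.0, 4.4 and 3.1 in the neonatal, 1.77, 2.13 and 1.59 in the prepuberty, 0.853 and 0.526 in the puberty and 0.843, 1.11 and 0.795 in the postpuberty libraries. MSTRG.167505 had 3.16, 3.86 and 3.16 FPKM in the neonatal libraries, 1.29, 2.39 and 0.852 in prepuberty, 0.639 and 0.645 in puberty, and 0.884, 0.739 and 0.523 in postpuberty. Neither was called in puberty against prepuberty, with changes of -0.75 (limma adjusted p = 0.00138) and -0.57 (0.0334). At MSTRG.93541 the neonatal libraries had 2.86, 2.53 and 3.07 FPKM, the prepuberty libraries 1.51, 1.36 and 0.681, the puberty libraries 0.256 and 0.192 and the postpuberty libraries 0.525, 0.147 and 0.219. FPKM at MSTRG.93542 was 2.85, 3.97 and 4.0 in the neonatal, 1.3, 1.18 and 0.986 in the prepuberty, 0.281 and 0.168 in the puberty and 0.258, 0.30 and 0.209 in the postpuberty libraries. In this pair the changes were nearly equal, -0.82 and -0.81, and again under the size a call needs. They belong to the longest run, with MSTRG.93544 and MSTRG.93545, whose changes were -0.62 and -0.70, so the whole run was uncalled and its puberty values lay below its prepuberty values at each of the 4 loci.

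MSTRG.77408 had 2.79, 4.22 and 2.21 FPKM in the neonatal libraries, 1.37, 1.57 and 1.36 in prepuberty, 0.266 and 0.0721 in puberty, and 0.18, 0.114 and 0.108 in postpuberty. At MSTRG.77409 the neonatal libraries had 2.82, 4.77 and 2.33 FPKM, the prepuberty libraries 1.31, 1.54 and 1.47, the puberty libraries 0.169 and 0.107 and the postpuberty libraries 0.237, 0.116 and 0.0933. In both the neonatal libraries stand in the order replicate 2, replicate 1, replicate 3, and the levels nearly coincide at all ages, over implied lengths of 18066 and 33643 bases. MSTRG.77408 fell by 1.06 in puberty (SE 0.18, limma adjusted p = 0.000352) and MSTRG.77409 by 1.10 (SE 0.20, limma adjusted p = 0.000474). Without puberty replicate 3 the change of MSTRG.77408 was -0.94 and no longer called.

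Other runs differed in what their loci did after prepuberty. The 3 loci MSTRG.346276, MSTRG.346278 and MSTRG.346280 were all called lower in puberty, with means of 0.129, 0.120 and 0.116 FPKM there against 2.14, 1.75 and 1.31 in prepuberty. The 3 loci MSTRG.88390, MSTRG.88392 and MSTRG.88397 were not called, with means of 0.741, 0.533 and 0.736 FPKM in puberty against 1.05, 0.461 and 0.345 in prepuberty. MSTRG.39343, MSTRG.39346 and MSTRG.39348 had postpuberty values above both puberty values at each locus. Within the 24 runs, 22 listed loci were not in the set: 21 of them had a neonatal value under 2 FPKM, and 8 had their highest mean in neonatal testes. Between MSTRG.24683 and MSTRG.24691, the 3 loci MSTRG.24687, MSTRG.24688 and MSTRG.24689 met all of the rule but the floor, with neonatal means of 1.91, 1.27 and 0.825 FPKM.

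**Figure D5:**
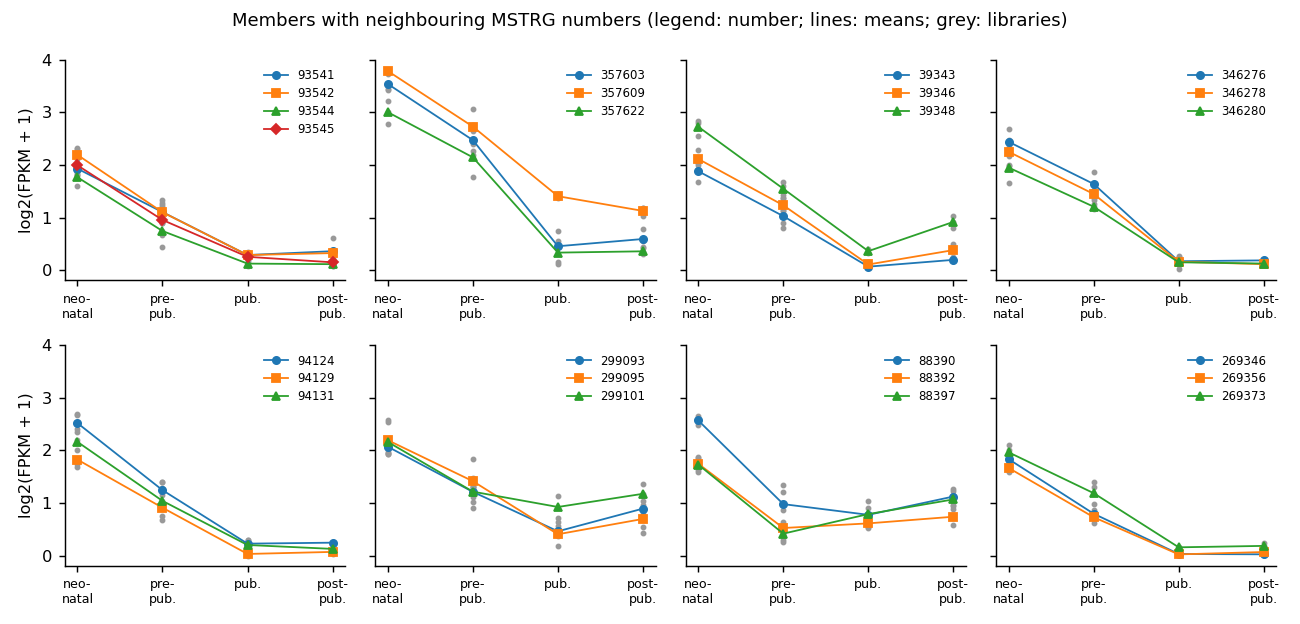
Mean log2(FPKM + 1) by age, from neonatal to postpuberty, for the 8 runs of 3 or 4 loci whose MSTRG numbers lie at most 20 apart; lines join the means of 1 locus and grey points are libraries. In the run with MSTRG.346276 the lines run close together at all 4 ages, and in the run with MSTRG.88397 the 3 means are higher in postpuberty than in puberty.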

How the data were processed

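FPKM values of 11 testis libraries, 1 table per library without a header, were used as deposited by the authors. HISAT2 2.1.0 and StringTie 2.1.1 are named per the submitters' processing notes. Read counter, annotation and genome build are not given in the sources used. Puberty replicate 1 was not analysed here.

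The loci and the lists were chosen with earlier results of these data known. Whole reads, lengths and scaling totals were recovered from the steps between FPKM values (100.0% of loci whole within 0.02 reads). Intervals and floors on reads cover counting error only. For testing, log2(FPKM + 1) was modelled with limma 3.58.1 (R 4.3.3), with a mean for each age, a variance trend and 7 residual degrees of freedom, on the 12954 loci with at least 1 FPKM in at least 2 libraries. Calls needed a Benjamini-Hochberg adjusted p under 0.05 and a change of at least 1, and tests were two-sided. The fit was also run on simulated data with changes only at loci of at least 2 FPKM in prepuberty. That level was held by 40 of the 186 loci, so the simulation does not cover the lower ones.

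Libraries of an age differed by more than sampling noise in each pair, with a chi-square of at least 14.3 per locus. Loci named in the text are the 10 with the highest neonatal mean, the 5 with the largest ratio of neonatal to prepuberty mean, up to 4 called with the largest change per direction and comparison, the 3 most and 3 least variable in neonatal libraries, those next to each threshold, and up to 3 runs of consecutive numbers. Alternatives covered the pseudocount, the filter, the scaling, the variance model, the libraries in the fit, voom on recovered reads, a replicate block, leaving out each library, and the thresholds of the rule. Other loci are named as examples chosen after their values were seen.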

Additional observations from a re-analysis of the deposited data

How the results depend on the processing

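Calls kept their direction at all 26 named loci, and of 1638 values 1559 kept their side of the thresholds, 73 gained a call and 6 lost one. Among the gains was MSTRG.88397, called higher in puberty than prepuberty as TPM (a log2 change of 1.30) and with voom. Besides the losses given above, MSTRG.77409 in postpuberty under median of ratios scaling (-0.997) and MSTRG.204216 in postpuberty without prepuberty replicate 2 (-0.98) did so. Loci lower in puberty than prepuberty (68) numbered 141 with a pseudocount of 0.1, 35 after median of ratios scaling, 112 after quantile normalization, 129 as TPM and 142 with voom on recovered reads. Loci lower in postpuberty than prepuberty (59) numbered 131, 38, 127, 121 and 132 in the same order. The cause was not tested. The counts of 0 became 1 with TPM and 1 with voom for higher in puberty than prepuberty. They became 1 with a pseudocount of 0.1, with TPM and with voom for lower in postpuberty than puberty. They became 3 with that pseudocount and 4 with TPM for higher in postpuberty than puberty, and 1, 3 and 2 with the pseudocount, TPM and voom for higher in postpuberty than prepuberty. With 1 library left out, the counts ran from 48 to 79 for lower in puberty than prepuberty, from 45 to 70 for lower in postpuberty than prepuberty, and from 0 to 0 for the other 4. The number of loci in the set (186) was 62 after median of ratios scaling, 111 after quantile normalization, 253 with the total without the 4 highest loci, 441 with a fold of 1.5, 50 with a fold of 3, 457 with a floor of 1 FPKM and 40 with a floor of 4 FPKM, and ran from 152 to 371 with 1 library left out. With the replicate block, 68 loci were lower in puberty (65 among the 68) and 59 in postpuberty. After subtracting the mean of each age, same-numbered libraries correlated at -0.117 to 0.047 and differently numbered ones at -0.082 to 0.117. With 2 or 3 libraries per age, this cannot decide whether a replicate number marks anything shared. Short loci are limited by reads, and 12 loci of the set had under 100 neonatal reads in all.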
